A study of Mus musculus with 24 samples.

Results

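The genes described are 42 genes of the cell cycle and of proliferation: cyclins, cyclin-dependent kinases (CDKs) and their inhibitors, E2F and RB factors, replication licensing factors, nucleotide enzymes, and p53 with some of its partners and targets. They were taken by symbol from a list, and all 42 were found among the 23411 genes of the count table. Poly(A) RNA of whole mouse liver was sequenced in 24 libraries, 3 mice in each of 8 groups, from male mice of 16 to 20 weeks on a mixed 129/Sv plus C57BL/6 background. α7HMZ mice carry an exon swap in the Hnf4a gene in every tissue, so that the nuclear receptor HNF4α is made only in its P2 promoter form, while wild-type (WT) mice make the P1 form in adult liver. Each genotype was taken fed ad libitum on chow at 10:30, at 13:30 and at 20:30, and a further group of each was taken at 10:30 after a fast of 12 h. The first 2 of these times lie in the light phase and 20:30 in the dark phase.

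By the labels, the fed α7HMZ, fed WT and fasted WT livers of 10:30 shared a flow cell, and the remaining groups were run on a second one. Fed α7HMZ livers can thus be compared with fed WT livers within a flow cell at each time, as can 20:30 with 13:30 and fasted with fed WT livers. Fasted α7HMZ livers differ in flow cell from both fed α7HMZ and fasted WT livers, and in those comparisons the flow cell cannot be told apart from the condition. Libraries held 8545959 to 28445590 counted reads. In α7HMZ fed 10:30 replicate 1, 50.8% of reads came from the ribosomal RNA gene Rn45s. Hepatocyte markers summed to 88029 to 175571 CPM in every library. CPM, the unit of level used throughout, is the count of a gene scaled to a fixed number of reads per library. Summed markers of T and NK cells reached 6.83 CPM in α7HMZ fed 20:30 replicate 1 and 6.5 CPM in α7HMZ fasted replicate 3, against 0.776 to 2.72 CPM in the other libraries. α7HMZ fasted replicate 3 also had 882 CPM of Kupffer cell markers, against 103 to 401 CPM elsewhere. In whole liver, fewer cells of a type and less RNA per cell cannot be told apart.

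Cells enter the cycle when D cyclins activate CDK4 and CDK6, which phosphorylate RB and release E2F factors. E and A cyclins with CDK2 then drive DNA replication, which the MCM helicase licenses, and B cyclins with CDK1 drive mitosis. CDK inhibitors oppose these kinases, and p53 induces the inhibitor p21 (Cdkn1a). Hepatocytes of the adult liver are mostly quiescent but can re-enter the cycle after loss of tissue, and several cycle genes, the kinase gene Wee1 among them, are known to be under circadian clock control.

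To show the promoter elements that are known for genes of this kind, 250 bases before the transcription start were read from RefSeq promoters of the mouse build GRCm38.p6, for the 33 of 42 genes that matched (37 windows). The sequences below are 1 example each of the E-box CACGTG, which clock and MYC factors bind, the CHR element, which mitotic genes often carry, and E2F sites, with 2 genes for the E-box. Capitals mark the motif.
Cdk4, E-box, chr10:127063285-127063534, plus strand: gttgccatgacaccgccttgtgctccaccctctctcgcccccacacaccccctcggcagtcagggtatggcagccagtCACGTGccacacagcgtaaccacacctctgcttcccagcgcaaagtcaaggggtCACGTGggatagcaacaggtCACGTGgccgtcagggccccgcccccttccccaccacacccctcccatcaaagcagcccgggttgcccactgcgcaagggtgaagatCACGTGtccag
Tyms, E-box, chr5:30073626-30073875, minus strand: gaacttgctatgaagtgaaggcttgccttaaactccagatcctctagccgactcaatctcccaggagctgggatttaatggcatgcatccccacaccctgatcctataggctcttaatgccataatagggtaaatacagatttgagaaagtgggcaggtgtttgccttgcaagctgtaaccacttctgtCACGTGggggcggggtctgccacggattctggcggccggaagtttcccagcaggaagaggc
Cdk1, CHR, chr10:69352913-69353162, minus strand: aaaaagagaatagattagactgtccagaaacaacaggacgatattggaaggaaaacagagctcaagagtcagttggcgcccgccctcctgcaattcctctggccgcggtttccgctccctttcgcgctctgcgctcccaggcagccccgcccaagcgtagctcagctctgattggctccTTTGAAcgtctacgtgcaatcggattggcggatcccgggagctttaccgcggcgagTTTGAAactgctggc
Mcm6, E2F, chr1:128359706-128359955, minus strand: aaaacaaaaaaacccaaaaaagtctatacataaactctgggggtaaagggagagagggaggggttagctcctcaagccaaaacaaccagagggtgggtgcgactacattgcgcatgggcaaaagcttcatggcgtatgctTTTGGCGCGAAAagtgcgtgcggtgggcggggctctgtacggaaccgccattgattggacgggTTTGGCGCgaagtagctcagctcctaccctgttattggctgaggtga

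Both strands were searched, with the letters CACGTG for the E-box, TTTGAA or TTCGAA for the CHR, CCAAT for the CCAAT box, and TTTCCCGC, TTTGGCGC or TTTCGCGC for E2F. The E2F letters occurred in 7 of the 37 windows (18.9%), against 1.53% of all 32851 RefSeq windows, and 2 of the 3 matches shown for Mcm6 overlap. A CCAAT box stood in 62.2% of the windows of the cycle genes and in 33.8% of all windows, the CHR letters in 21.6% and 17.1%, and the E-box in 8.11% and 6.02%. The E-box windows were those of Cdk4 with 4 matches, Cdk6 and Tyms. The D-box letters TTATGTAA and the HNF4 letters CAAAGTCCA were searched as well. Each occurred in 0 of the 37 windows, against 0.819% (D-box) and 0.384% (HNF4) of all windows. The CRE letters TGACGTCA stood in 5.41% of the windows, those of Mcm5 and Plk2, against 1.55% of all. Wee1 and Ccnd1 were among the 9 genes with no promoter to read, so their promoters were not searched. These are letter matches and not measured binding.

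The first question was which of these genes can be measured at all in a liver with few dividing cells. Counts per library spanned several orders of magnitude, and 32 genes were well counted, with at least 10 reads in every library. Another 6 genes, Cdk6, Ccne1, Ccnb2, Cdk1, Mki67 and Top2a, were tested but had under 10 reads in some libraries. The remaining 4 genes, Ccnb1, Cdc20, Foxm1 and Cdc6, failed the filter on low counts in both fits and were too rare to judge. Per kilobase of exon, the highest median levels were those of Pcna (17.4 CPM per kb), the replication clamp, Ccnd3 (14.6 CPM per kb), Cdk4 (14.0 CPM per kb) and Plk3 (12.1 CPM per kb). The lowest were those of Cdc6 (0.0258 CPM per kb), Ccnb1 (0.0630 CPM per kb) and Foxm1 (0.0710 CPM per kb).

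**Figure D1:**
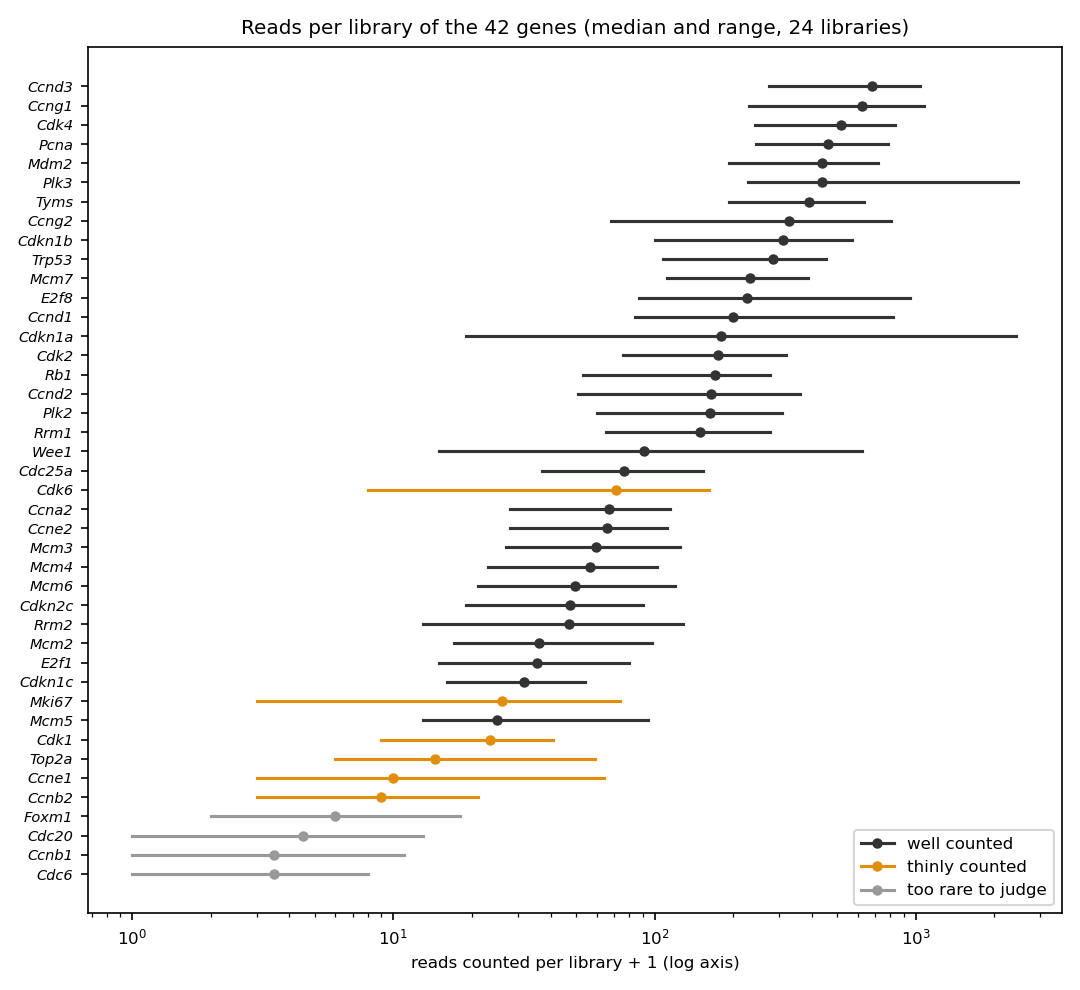
Reads per library plus 1 (log axis) for each of the 42 genes, ordered by median, with the median as a point and the range over 24 libraries as a line. Colours mark the 32 well counted, 6 thinly counted and 4 too rare genes, the last of which lie at the bottom.

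Ccnb1 (chr13:100778650-100786570, mm10), the B cyclin of mitotic entry, had 81 reads over all 24 libraries and none in 4 of them. At 10:30, fed α7HMZ livers had 2, 0 and 2 reads, against 0, 3 and 0 reads in fed WT livers. At 13:30 there were 10, 4 and 5 reads in α7HMZ livers, against 4, 2 and 5 in WT livers. At 20:30 there were 4, 2 and 2 reads in α7HMZ livers, against 2, 0 and 4 in WT livers, and after the fast 1, 8 and 8 reads in α7HMZ livers, against 7, 2 and 4 in WT livers. The genotypes overlapped in every condition. A count of 0 allows up to 3 reads, which is 0.101 to 0.385 CPM at the depth of these libraries, and this limit covers counting error only. Cdc20, an activator of the anaphase-promoting complex, had 101 reads in all, Foxm1, a mitotic transcription factor, had 150, and Cdc6, a licensing factor, had 65. Between the genotypes, Foxm1 did not overlap after the fast, with 8, 9 and 10 reads in fasted α7HMZ livers (0.420, 0.343 and 0.570 CPM), against 3, 1 and 2 reads in fasted WT livers (0.147, 0.0593 and 0.0978 CPM). Cdc6 did not overlap in CPM at 13:30, with 0.182, 0.194 and 0.230 CPM in α7HMZ livers (5, 5 and 4 reads), against 0.0925, 0.169 and 0.0573 CPM in WT livers (2, 5 and 1 reads). How many of all genes did not overlap was not counted. In a fit with no filter on low counts, Foxm1 passed between the fasted genotypes (log2 fold change 2.00, SE 0.63, adjusted p = 0.047 by edgeR), across flow cells. In that comparison 2047 of all 18008 genes passed. No other comparison of these 4 genes passed, with Cdc6 at 13:30 at an adjusted p of 0.669.

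Genotype differences in fed livers concerned few of these genes. Of 38 genes tested, 4 passed at 10:30 (3 higher and 1 lower in α7HMZ livers), against 17.3% of all 13334 genes tested (8.36% higher and 8.98% lower). At 13:30, 3 passed (1 higher, 2 lower), against 12.8% of all genes (6.19% higher and 6.61% lower). At 20:30, 2 passed (1 higher, 1 lower), against 19.1% of all genes (8.29% higher and 10.8% lower). With upper quartile factors the called genes split into 1060 higher and 705 lower at 13:30, against 825 and 881 with TMM factors, and into 1354 and 1153 at 20:30, against 1105 and 1446. Over the average of the 3 times, with 9 α7HMZ and 9 WT mice, 6 passed (4 higher, 2 lower), against 26.5% of all genes (13.3% higher and 13.2% lower). Markers of cell types differed between the fed genotypes as well. In the average, 5 of 8 hepatocyte markers were lower in α7HMZ livers and 0 higher, and 2 of 5 tested cholangiocyte markers were higher and 0 lower. Of 5 erythroid markers only 1, Alas2, was tested and lower, and the others failed the filter on low counts. Their sum was 53.2 to 83.6 CPM in fed α7HMZ livers, against 142.7 to 195.3 CPM in fed WT livers. This sum thus rests mostly on Alas2 and cannot stand for erythroid cells as a whole. The part of the cell type markers in the results below was not tested. The shares of the cycle genes lay below the background in each of these comparisons. Their median log2 fold change in the average was 0.01, and that of all genes was 0.03. All calls are by edgeR's quasi-likelihood test with a Benjamini-Hochberg adjusted p under 0.05 over all genes tested, and log2 fold changes are given as α7HMZ over WT with their standard error (SE).

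Wee1 (chr7:110122046-110143286), the kinase that holds CDK1 inactive before mitosis, was higher in α7HMZ livers in the light phase. At 13:30 it was at 22.6, 18.3 and 17.0 CPM in α7HMZ livers, against 7.68, 13.1 and 9.56 CPM in WT livers. At 20:30 its level was 10.9, 16.2 and 14.1 CPM in α7HMZ livers, against 15.6, 15.3 and 16.7 CPM in WT livers. At 10:30 both genotypes were low, at 2.36, 1.95 and 3.38 CPM in α7HMZ livers, against 1.36, 1.79 and 1.14 CPM in WT livers. The groups did not overlap at 13:30 and 10:30 and did overlap at 20:30. Wee1 was higher in α7HMZ livers by a log2 fold change of 0.93 at 13:30 (SE 0.19, adjusted p = 0.00298) and 0.87 at 10:30 (SE 0.28, adjusted p = 0.0405), and by 0.53 in the average (SE 0.13, adjusted p = 0.00518). Of the 38 genes, Wee1 was the only one past edgeR's test of genotype by time (adjusted p = 0.0381), against 4.99% of all genes. That call was lost when any of 13 of the 18 fed libraries was left out (adjusted p up to 0.0827), and was kept only without α7HMZ 10:30 replicate 1 or 3, α7HMZ 20:30 replicate 2, WT 13:30 replicate 2 or WT 20:30 replicate 2. The 10:30 call was lost without any of 5 libraries: WT 10:30 replicates 1 and 3, α7HMZ 10:30 replicates 1 and 3, or α7HMZ 13:30 replicate 2, with an adjusted p up to 0.276.

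Plk2 (chr13:110395046-110400844), a polo-like kinase that is a p53 target, was lower in α7HMZ livers at 10:30. It was at 6.29, 4.78 and 5.66 CPM in α7HMZ livers, against 13.9, 11.2 and 8.62 CPM in WT livers, without overlap. The log2 fold change was -1.02 (SE 0.18, adjusted p = 7.43e-04) and stayed past the test without any single library. In the average Plk2 was lower by -0.47 (SE 0.10, adjusted p = 0.00174). At 13:30 the groups overlapped, with 7.81, 8.71 and 9.66 CPM in α7HMZ livers, against 8.65, 9.09 and 8.99 CPM in WT livers. At 20:30 they overlapped as well, with 6.63, 8.13 and 6.41 CPM in α7HMZ livers, against 8.62, 11.4 and 7.74 CPM in WT livers. The genotype by time test for Plk2 did not pass by edgeR (adjusted p = 0.0549) but did by DESeq2 (adjusted p = 0.0159), as did that for the CDK inhibitor gene Cdkn1b (adjusted p = 0.0464 by DESeq2 and 0.0778 by edgeR). Over all genes, DESeq2 called 1611 in this test and edgeR 665.

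Rrm2 (chr12:24708241-24714146), the regulated subunit of ribonucleotide reductase, was higher in α7HMZ livers in the average (log2 fold change 0.64, SE 0.16, adjusted p = 0.00701). At 20:30 it was at 2.90, 4.5 and 6.24 CPM in α7HMZ livers, against 2.72, 1.54 and 2.00 CPM in WT livers, without overlap (log2 fold change 1.05, SE 0.29, adjusted p = 0.0171). At 13:30 it was at 4.61, 3.21 and 3.22 CPM in α7HMZ livers, against 2.68, 2.97 and 2.52 CPM in WT livers. The 20:30 call was lost without WT replicate 2 or 3 or α7HMZ replicate 3 of that time (adjusted p up to 0.1). Pcna (chr2:132249162-132253314) was lower in α7HMZ livers at 20:30, at 24.4, 27.6 and 23.7 CPM in α7HMZ livers, against 32.4, 38.1 and 31.3 CPM in WT livers (log2 fold change -0.42, SE 0.13, adjusted p = 0.026). Its call was lost without WT replicate 2, α7HMZ replicate 1 or α7HMZ replicate 3 of 20:30, with an adjusted p up to 0.0991.

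Ccnd1 (chr7:144929931-144939925), the D cyclin that growth factors induce, was lower in α7HMZ livers at 13:30. It was at 19.5, 14.8 and 13 CPM in α7HMZ livers, against 23, 27.6 and 26.3 CPM in WT livers, without overlap (log2 fold change -0.70, SE 0.19, adjusted p = 0.0226). At 10:30 it was at 15.8, 12.4 and 8.37 CPM in α7HMZ livers, against 15.4, 11.3 and 15.8 CPM in WT livers. At 20:30 its level was 11.4, 8.32 and 11.4 CPM in α7HMZ livers, against 11.6, 10.6 and 11.8 CPM in WT livers, and the groups overlapped at both of these times. The 13:30 call was lost without WT 13:30 replicate 2 or 3 or α7HMZ 13:30 replicate 2 or 3, with an adjusted p up to 0.110. In the average Ccnd1 was lower by -0.35 (SE 0.12, adjusted p = 0.0333), a call lost without any of 10 of the 18 libraries (adjusted p up to 0.0682). These were α7HMZ 10:30 replicate 3, 13:30 replicates 2 and 3 and 20:30 replicate 2, and WT 10:30 replicates 1 and 3, 13:30 replicates 2 and 3 and 20:30 replicates 1 and 3.

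Ccnd3 (chr17:47505051-47599691), the D cyclin with the highest level per length in these livers, was higher in α7HMZ livers at 10:30. It was at 27.6, 30.6 and 28.4 CPM in α7HMZ livers, against 20.7, 23 and 22.3 CPM in WT livers (log2 fold change 0.40, SE 0.11, adjusted p = 0.0214). The groups did not overlap, but the call was lost without WT replicate 1 or 3 or α7HMZ replicate 2 of that time (adjusted p up to 0.0946). Exons of Ccnd3 share 361 bases with those of Bysl on the other strand, and the library kit did not mark strand, so reads in this stretch cannot be assigned to one of them. The same holds for Cdk4 and Tspan31, which share 641 bases. Other genes with calls also share exon bases with a gene on the other strand. These are Ccnd1 with LTO1 (818 bases), E2f8 with Gm2788 (610 bases), Ccnd2 with Gm43126 (372 bases) and Cdkn1a with AC167363.2 (273 bases). Unlike Bysl and Tspan31, these partners are not among the counted genes by symbol. Reads from them may thus have been counted to the cycle gene, which was not tested.

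E2f8 (chr7:48866429-48881596), an atypical E2F that represses E2F targets and takes part in hepatocyte polyploidy, was higher in α7HMZ livers at 10:30, at 14.4, 27.3 and 14.4 CPM, against 5.44, 8.25 and 7 CPM in WT livers. The log2 fold change was 1.45 (SE 0.47, adjusted p = 0.0409), and 0.76 in the average (SE 0.26, adjusted p = 0.0366). At 13:30 its levels spread widely, at 14.9, 36.8 and 9.66 CPM in α7HMZ livers, against 15.2, 6.69 and 16.0 CPM in WT livers, and at 20:30 at 28.8, 11.7 and 13.7 CPM in α7HMZ livers, against 21.5, 15.4 and 13.2 CPM in WT livers. The 10:30 call was lost without any of the 3 WT libraries or α7HMZ replicate 2 of that time (adjusted p up to 0.185), and the average without any of 8 libraries (adjusted p up to 0.115), which were replicate 2 at 10:30, replicate 2 at 13:30 and replicate 1 at 20:30 of α7HMZ, and replicates 1 and 3 at 10:30, 2 at 13:30 and 2 and 3 at 20:30 of WT. Cdkn2c (chr4:109660876-109667189), the CDK4 and CDK6 inhibitor p18, was higher in α7HMZ livers in the average (log2 fold change 0.52, SE 0.16, adjusted p = 0.0192). At 13:30 it was at 2.69, 3.45 and 1.95 CPM in α7HMZ livers, against 1.62, 1.69 and 1.55 CPM in WT livers. Without α7HMZ 13:30 replicate 2 the adjusted p was 0.0588. Ccng1 (chr11:40748552-40755311), a cyclin induced by p53, was lower in α7HMZ livers at 13:30, at 27.4, 33.2 and 29.7 CPM, against 40.7, 36.2 and 36.3 CPM in WT livers (log2 fold change -0.33, SE 0.10, adjusted p = 0.0422). Its call was lost without any of 9 of the 18 libraries (adjusted p up to 0.189), which were α7HMZ 13:30 replicates 1 and 3, α7HMZ 20:30 replicate 1 and each WT liver of 10:30 and 13:30.

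**Figure D2:**
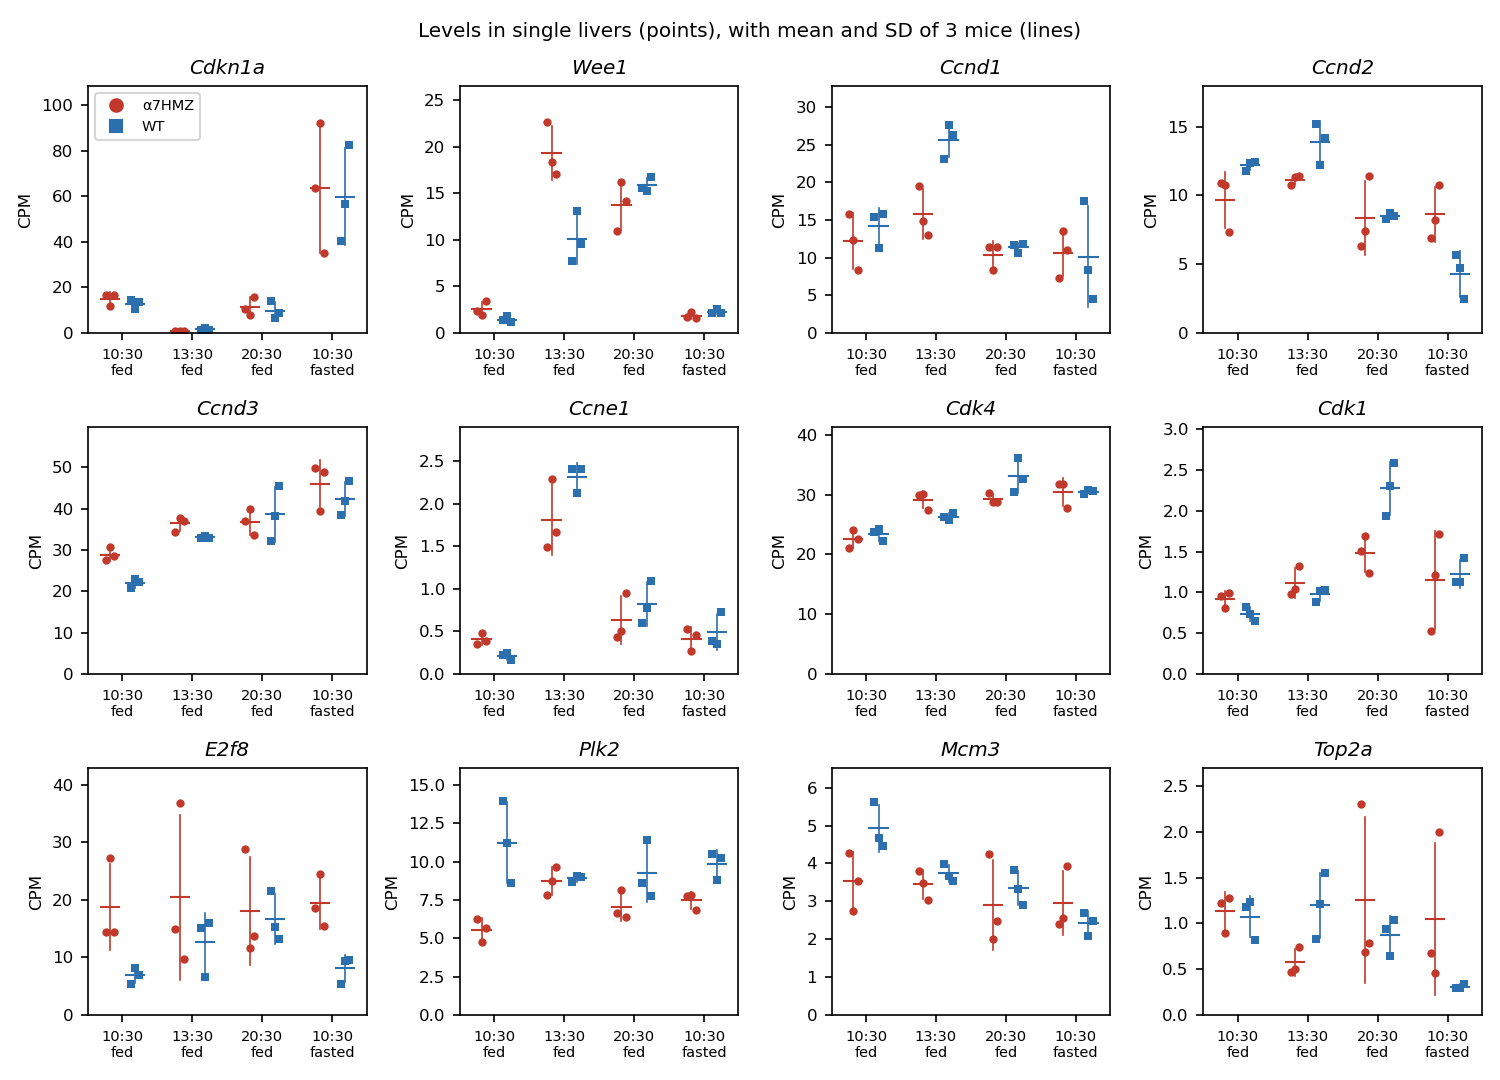
CPM of 12 of the cycle genes in each liver (points), in α7HMZ (red circles) and WT (blue squares) groups at 10:30, 13:30 and 20:30 fed and 10:30 fasted, with the mean (horizontal line) and SD (vertical line) of 3 mice. Cdkn1a is lowest at 13:30 and highest after the fast in both genotypes, and the Wee1 points of α7HMZ livers at 13:30 all lie above those of WT livers.

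Other genes of these pathways were counted from lists. Of 16 tested G1 regulators outside the 42, 5 were higher and 0 lower in α7HMZ livers in the average, in which 13.3% of all genes were higher and 13.2% lower. E2f2 was higher by 1.01, E2f3 by 0.37 and Rbl1, a relative of RB, by 0.66 on the log2 scale. Of 26 replication genes, 1 was higher and 3 were lower, with Mcm10 at -1.14 (SE 0.18, adjusted p = 9.53e-05). Of 22 mitotic genes, 0 were higher and 5 were lower, with Ccnf at -1.10 (SE 0.13, adjusted p = 3.19e-06) and Cks2 at -0.56. The median log2 fold changes of these lists were 0.15, 0.17 and -0.26, against 0.03 for all genes. Of 22 p53 targets, 2 were higher and 1 lower, with Gadd45b at 1.38 and Perp at -1.41 (SE 0.07, adjusted p = 2.36e-11).

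Between 20:30 and 13:30, Cdkn1a (chr17:29090976-29100727), the CDK inhibitor p21, differed most. At 20:30 it was at 10.7, 7.76 and 16.0 CPM in α7HMZ livers, against 1.05, 0.774 and 1.03 CPM at 13:30. In WT livers it was at 13.9, 6.41 and 8.83 CPM at 20:30, against 1.25, 2.20 and 1.37 CPM at 13:30. No liver of 13:30 reached the lowest liver of 20:30 in either genotype. The log2 fold change was 3.60 in α7HMZ livers (SE 0.33, adjusted p = 2.96e-06), which is 12.1-fold, and 2.60 in WT livers (SE 0.31, adjusted p = 6.36e-05), which is 6.08-fold. At 10:30 it was at 16.5, 11.7 and 16.9 CPM in α7HMZ livers, against 14.4, 10.4 and 13.5 CPM in WT livers, but on the other flow cell. The G1 cyclin Ccne1 (chr7:38097984-38107534) had the opposite course. It was at 0.437, 0.5 and 0.956 CPM at 20:30 in α7HMZ livers, against 1.49, 2.28 and 1.67 CPM at 13:30, and at 0.595, 0.769 and 1.10 CPM at 20:30 in WT livers, against 2.41, 2.13 and 2.40 CPM at 13:30. Its log2 fold changes were -1.53 in α7HMZ livers (SE 0.30, adjusted p = 0.00492) and -1.49 in WT livers (SE 0.30, adjusted p = 0.00267). They rest on thin counts, with 8 to 17 reads per library at 20:30 in α7HMZ livers and 6 to 17 in WT livers. Both genes stayed past the test in both genotypes without any single library.

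In α7HMZ livers 2 of 38 genes passed between 20:30 and 13:30, against 5.21% of all genes (3.16% higher and 2.05% lower). In WT livers 7 passed (4 higher, 3 lower), against 21.6% of all genes (11.6% higher and 9.97% lower). Besides Cdkn1a and Ccne1, 5 genes passed in WT livers. Ccnd1 had a log2 fold change of -0.60 in α7HMZ livers, which did not pass (adjusted p = 0.0967), and was lower at 20:30 in WT livers by -1.16 (SE 0.20, adjusted p = 0.00114). Ccnd2 (chr6:127125162-127152193) was lower in WT livers by -0.69 (SE 0.19, adjusted p = 0.0135), with 8.32, 8.72 and 8.51 CPM at 20:30 against 15.2, 12.2 and 14.1 CPM at 13:30. Without WT 13:30 replicate 1 its adjusted p was 0.0517. Cdk1 (chr10:69335146-69352938), the mitotic kinase, was at 1.51, 1.69 and 1.24 CPM at 20:30 in α7HMZ livers, against 0.980, 1.05 and 1.32 CPM at 13:30 (log2 fold change 0.43, adjusted p = 0.294). In WT livers it was at 1.93, 2.31 and 2.58 CPM at 20:30, against 0.879, 1.01 and 1.03 CPM at 13:30 (log2 fold change 1.22, SE 0.22, adjusted p = 0.00144), on thin counts. Wee1 had a log2 fold change of -0.49 in α7HMZ livers, which did not pass (adjusted p = 0.154), and was higher at 20:30 in WT livers by 0.65 (SE 0.20, adjusted p = 0.0253). Its WT call was lost without WT 13:30 replicate 1 or 3 or WT 20:30 replicate 3 (adjusted p up to 0.109). Cdk4 (chr10:127063534-127067920) had a mean of 29.3 CPM at 20:30 in α7HMZ livers, against 29.2 CPM at 13:30, and did not pass there. In WT livers Cdk4 was higher at 20:30 by 0.34 (SE 0.09, adjusted p = 0.0158). That call was lost without WT 13:30 replicate 2 or WT 20:30 replicate 2 (adjusted p up to 0.0701). Whether the differences between 20:30 and 13:30 differ between genotypes was tested only by the genotype by time test, in which Wee1 passed by edgeR.

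**Figure D3:**
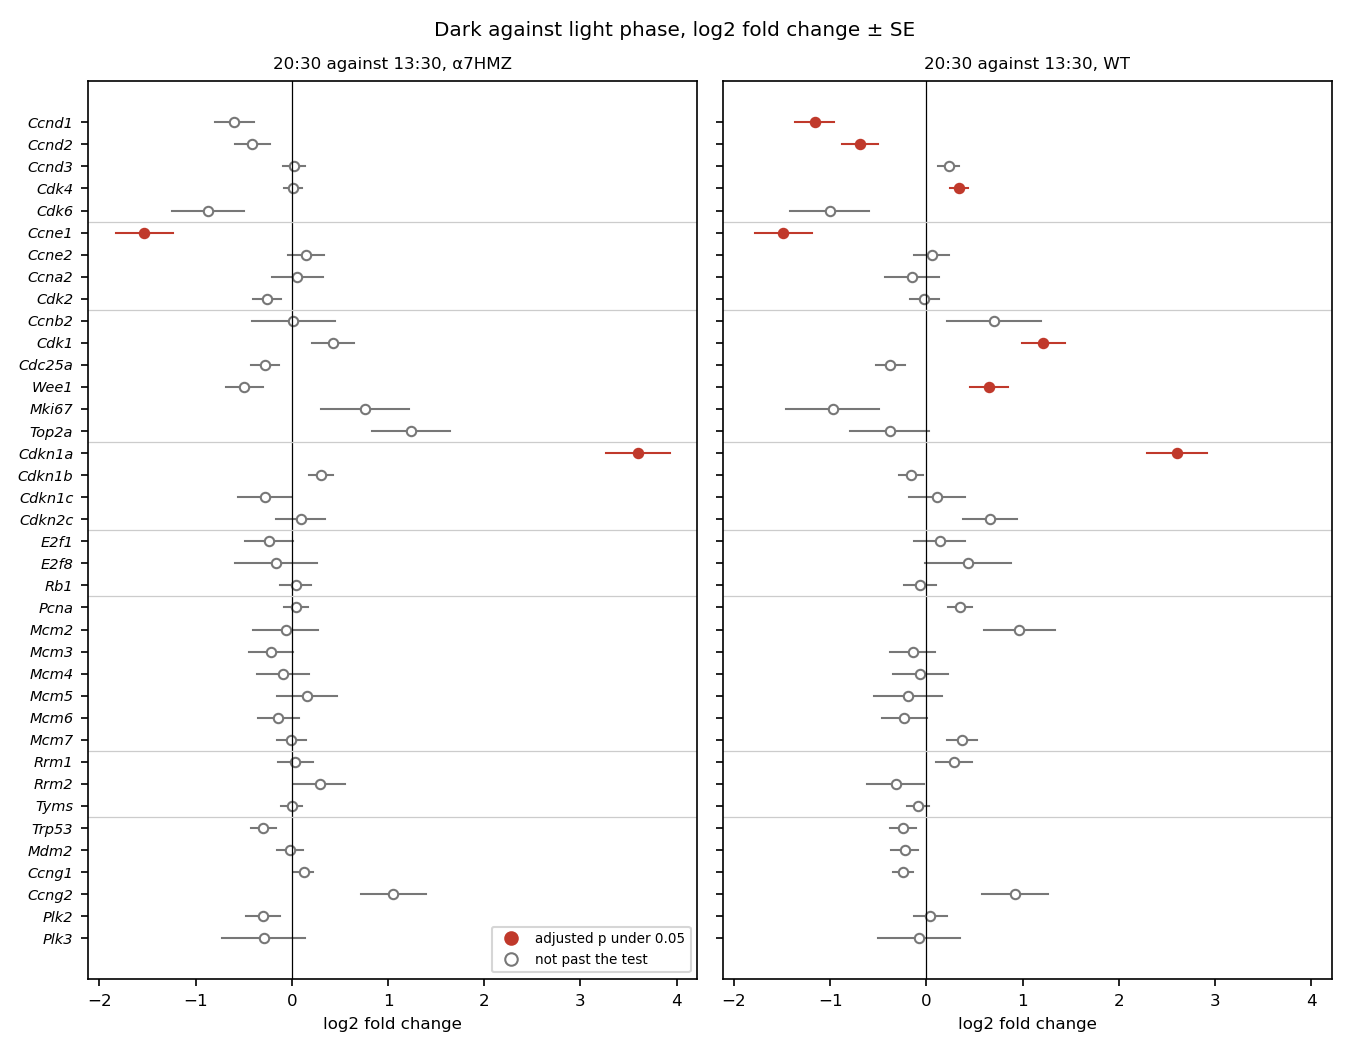
Log2 fold change (x axis, with SE as a line) of 20:30 against 13:30 for the 38 tested genes, in α7HMZ livers (left) and WT livers (right), with filled red points for an adjusted p under 0.05. Cdkn1a lies farthest to the right in both panels, at 3.60 in α7HMZ and 2.60 in WT livers, and Ccne1 lies at -1.53 and -1.49.

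Of the wider lists in WT livers at 20:30 against 13:30, against 11.6% of all genes higher and 9.97% lower, 1 replication gene was higher and 5 were lower of 26, with the licensing factor Cdt1 at -1.33 and Uhrf1 at -2.79, and Tk1, a thymidine kinase, at 1.08. Among 22 mitotic genes 2 were higher and 0 lower, Pttg1 at 0.68 and Cks2 at 0.69. Among 22 p53 targets 2 were higher and 3 lower, with Mdm4 at -1.05 and Bax at 0.39. Sinusoidal endothelial markers moved in the same comparison, with 1 of 8 higher and 3 of 8 lower, and their summed level was 279 to 310 CPM at 20:30, against 359 to 383 CPM at 13:30. In α7HMZ livers it was 194 to 374 CPM at 20:30, against 389 to 410 CPM at 13:30, with 0 of 8 higher and 2 of 8 lower. Hepatocyte markers had 1 of 8 higher and 0 lower in α7HMZ livers, and 5 of 8 higher and 0 lower in WT livers, where they summed to 141785 to 175571 CPM at 20:30, against 99396 to 117662 CPM at 13:30. Of 5 cholangiocyte markers, 3 were higher in α7HMZ livers and 2 in WT livers, and 0 were lower. The part of these markers in the results was not tested.

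After the 12 h fast, Cdkn1a was again the gene with the largest change. It was at 63.7, 92.2 and 35.1 CPM in fasted α7HMZ livers, against 16.5, 11.7 and 16.9 CPM in fed α7HMZ livers of 10:30. In fasted WT livers it was at 40.4, 56.5 and 82.6 CPM, against 14.4, 10.4 and 13.5 CPM in fed WT livers of 10:30. Every fasted liver was above every fed one. The log2 fold changes were 2.08 in α7HMZ livers (SE 0.32, adjusted p = 8.70e-04), or 4.23-fold, and 2.23 in WT livers (SE 0.32, adjusted p = 3.64e-04), or 4.70-fold. Of 37 genes tested, 4 passed in α7HMZ livers (3 higher, 1 lower), against 12.6% of all 13103 genes (6.68% higher and 5.9% lower). In WT livers 10 passed (4 higher, 6 lower), against 22.7% of all genes (12% higher and 10.6% lower).

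Ccnd3 and Cdk4 were higher and Tyms lower after the fast in both genotypes. Ccnd3 was at 49.9, 39.4 and 48.8 CPM in fasted α7HMZ livers and at 38.5, 41.8 and 46.7 CPM in fasted WT livers. Its log2 fold changes, fasted over fed, were 0.67 in α7HMZ (SE 0.12, adjusted p = 0.00258) and 0.95 in WT livers (SE 0.12, adjusted p = 1.79e-04). Cdk4 was at 31.8, 31.7 and 27.8 CPM in fasted α7HMZ livers, against 21.2, 24.1 and 22.5 CPM in fed ones, and at 30.2, 30.7 and 30.6 CPM in fasted WT livers, against 23.7, 24.3 and 22.2 CPM in fed ones. Its log2 fold changes were 0.43 in α7HMZ (adjusted p = 0.0128) and 0.39 in WT livers (adjusted p = 0.0152), lost without α7HMZ fasted replicate 1 or 2 (adjusted p up to 0.0619), or without WT fed replicate 1 or 3 (adjusted p up to 0.0673). Tyms (chr5:30058202-30073617), which makes thymidylate, was at 16.2, 15.8 and 15.3 CPM in fasted α7HMZ livers, against 23.7, 24.1 and 22.6 CPM in fed ones. It was at 18.3, 17.2 and 21.9 CPM in fasted WT livers, against 26.1, 24.6 and 26.4 CPM in fed ones. The log2 fold changes were -0.57 in α7HMZ (SE 0.11, adjusted p = 0.00495) and -0.42 in WT livers (SE 0.11, adjusted p = 0.0174), and the WT call was lost without WT fed replicate 1 or 3 or WT fasted replicate 2 (adjusted p up to 0.0794).

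The other calls after the fast were in WT livers. Ccnd2 was at 6.87, 8.22 and 10.8 CPM in fasted α7HMZ livers, against 10.9, 10.8 and 7.32 CPM in fed α7HMZ livers, with overlap. In WT livers it was at 5.64, 4.75 and 2.44 CPM fasted, against 11.8, 12.4 and 12.4 CPM fed, without overlap (log2 fold change -1.51, SE 0.27, adjusted p = 0.00158). Mcm3 (chr1:20802968-20820312), an MCM helicase subunit, was at 2.70, 2.08 and 2.49 CPM in fasted WT livers, against 5.63, 4.68 and 4.47 CPM in fed ones (log2 fold change -1.02, SE 0.24, adjusted p = 0.00897). Top2a (chr11:98992943-99024189), the topoisomerase of dividing cells, was at 0.295, 0.297 and 0.342 CPM in fasted WT livers, against 1.18, 1.23 and 0.813 CPM in fed ones (log2 fold change -1.78, SE 0.53, adjusted p = 0.0274), on thin counts. E2f1 (chr2:154559407-154569892) was lower by -0.94 and Mcm2 (chr6:88883474-88898780) by -0.91, and Cdkn2c was higher by 1.00, at 3.78, 4.03 and 3.81 CPM in fasted WT livers, against 1.36, 2.22 and 2.36 CPM in fed ones. E2f1 was at 0.982, 0.830 and 1.27 CPM in fasted WT livers, against 2.18, 1.85 and 1.95 CPM in fed ones, and Mcm2 at 1.13, 1.42 and 1.66 CPM, against 2.22, 3.45 and 2.28 CPM.

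Several of these WT calls were lost when 1 library was left out, though their log2 fold changes kept their sign. With 1 library left out, these ranged from -1.92 to -1.68 for Top2a, -1.12 to -0.82 for E2f1 and -1.05 to -0.67 for Mcm2. Top2a was lost without any of 5 of 12 libraries (WT fed replicates 1 and 2 and each fasted WT liver, adjusted p up to 0.0845), E2f1 without any of 5 (each fed WT liver and fasted WT replicates 1 and 2, up to 0.122), and Mcm2 without any of 7 (each WT liver and α7HMZ fed replicate 2, up to 0.186). Cdkn2c was lost without WT fed replicate 1 or WT fasted replicate 2 (up to 0.101). In the same WT livers, 6 of 8 sinusoidal endothelial markers were lower and 0 higher after the fast, with a summed level of 193 to 318 CPM in fasted livers, against 435 to 484 CPM in fed ones. Kupffer markers had 2 of 9 lower and 0 higher, at 112 to 203 CPM in fasted WT livers, against 299 to 401 CPM in fed ones. Their part in the changes of Ccnd2, Top2a and the MCM genes was not tested.

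Among the wider lists, 7 of 22 p53 targets were higher and 0 lower in fasted α7HMZ livers, and 8 were higher and 2 lower in fasted WT livers, against the shares of all genes given above. Gadd45b, a stress-induced gene, was higher by 2.06 in α7HMZ (SE 0.31, adjusted p = 6.88e-04) and by 3.29 in WT livers (SE 0.34, adjusted p = 3.02e-05). Sesn2 was higher by 1.23 in α7HMZ and by 1.54 in WT livers. The median of the list was 0.32 in α7HMZ and 0.43 in WT livers, against -0.01 and 0.00 for all genes. Trp53 itself, which encodes p53, and Mdm2, its ubiquitin ligase, did not pass, at log2 fold changes of -0.08 and 0.24 in WT livers. The p53 targets Ccng1 and Plk2 did not pass in the main fit either. Mean Ccng1 was 29.0 CPM fasted against 39.0 CPM fed in α7HMZ livers, and 30.8 against 40.4 CPM in WT livers. Mean Plk2 was 7.48 CPM fasted against 5.58 CPM fed in α7HMZ livers, and 9.83 against 11.3 CPM in WT livers. The mitotic list had 0 of 20 higher and 0 lower in α7HMZ livers, and 3 higher and 0 lower in WT livers, with Ccnf at 0.54 and Aurka at 0.75. The replication list had 0 of 25 higher and 4 lower in fasted α7HMZ livers (median -0.40), namely Mcm10 at -1.83, Pole at -1.25, Tk1 at -0.77 and Pola1, of which all but Mcm10 were named after their values were seen. In fasted WT livers it had 1 higher and 1 lower (median -0.11), Cdt1 at 1.69 (adjusted p = 7.90e-04) and Mcm10 at -0.94.

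**Figure D4:**
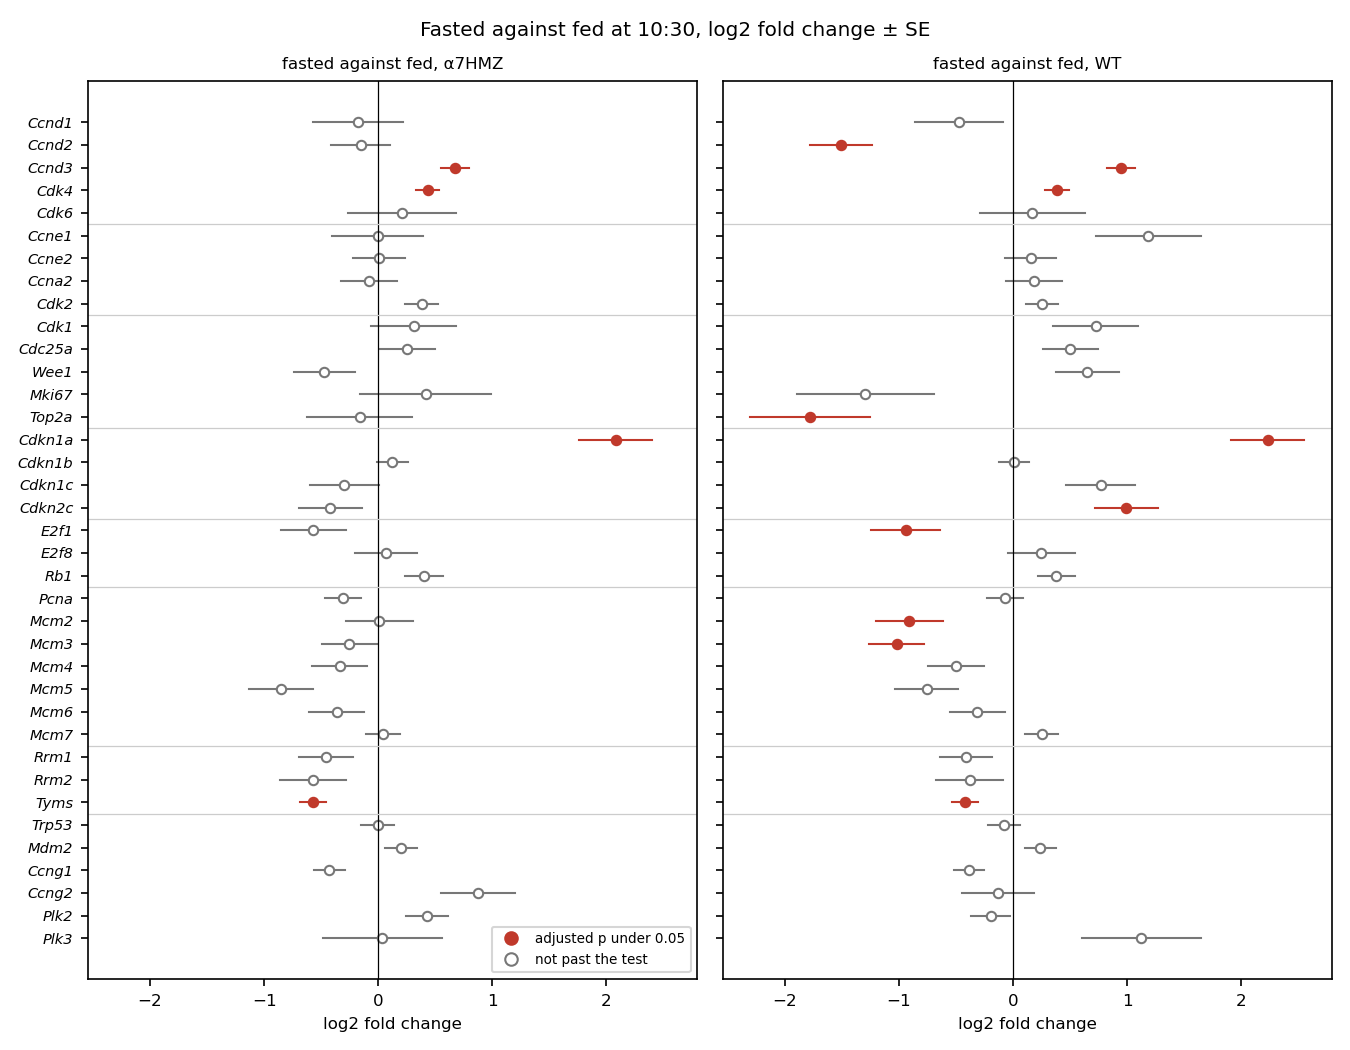
Log2 fold change (x axis, with SE as a line) of fasted against fed livers of 10:30 for the 37 tested genes, in α7HMZ livers (left) and WT livers (right), with filled red points for an adjusted p under 0.05. Cdkn1a lies at 2.08 in α7HMZ and 2.23 in WT livers, and Ccnd2 at -0.15 and -1.51.

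The fed livers of 10:30 serve both here and in the comparison of fed genotypes, so these results share samples. Whether the fast acted differently in the genotypes was tested by an interaction term, which shares the flow cell limit of the fasted α7HMZ libraries. By edgeR 0 of 37 genes passed, against 0.252% of all genes (0.16% higher and 0.0916% lower). At an unadjusted p under 0.05 there were 9 of the 37 (24.3%), against 14.9% of all genes. That share was also above all genes for the fast in WT livers (45.9% against 36.2%), and near it in α7HMZ livers (27% against 26.9%). It was above for 20:30 against 13:30 (α7HMZ 26.3% against 19.3%, WT 39.5% against 35.9%). It was below in every genotype comparison, such as 21.1% against 30.7% fed at 10:30 and 21.6% against 30.2% fasted, and by genotype and time (21.1% against 26.6%). DESeq2 called 1, Ccnd2, at a log2 difference of 1.36 (adjusted p = 0.0384), where edgeR gave 1.35 (SE 0.37, adjusted p = 0.173). Over all genes, DESeq2 called 208. Cdkn2c had the largest difference in the other direction, at -1.42 (SE 0.39, adjusted p = 0.173).

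Fasted α7HMZ livers were also set against fasted WT livers, across flow cells. Of 37 genes, 3 passed and all were higher, against 15.5% of all genes (6.9% higher and 8.65% lower). E2f8 was at 18.6, 24.4 and 15.5 CPM in fasted α7HMZ livers, against 5.45, 9.37 and 9.63 CPM in fasted WT livers, without overlap (log2 fold change 1.26, SE 0.28, adjusted p = 0.00875). Ccnd2 was higher by 1.00 (SE 0.27, adjusted p = 0.0232) and Top2a by 1.67 (SE 0.52, adjusted p = 0.0456). Top2a was at 0.682, 0.457 and 2.00 CPM in fasted α7HMZ livers, the last of which is the library with the high Kupffer and T and NK cell markers. Without that library the log2 fold change of Top2a was 0.80 and did not pass (adjusted p = 0.250). The Top2a call was also lost without any other of the 12 libraries except α7HMZ fasted replicates 1 and 2. Ccnd2 lost its call without the same library, or without WT fasted replicate 2 or 3, with an adjusted p up to 0.0827. Over the groups, 5 of 9 Kupffer and 3 of 8 sinusoidal endothelial markers were higher in fasted α7HMZ livers and 0 were lower. Of 8 hepatocyte markers 3 were lower and 0 higher, and of 5 cholangiocyte markers 3 were lower and 1 higher, and their part in the results was not tested.

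The mitotic genes were summed to compare single livers, though a sum does not show whether the genes moved together. The sum over Mki67, Top2a, Ccnb1, Ccnb2, Cdk1, Cdc20 and Foxm1 (7 genes) was 9.81 CPM in α7HMZ fasted replicate 3 and 8.22 CPM in α7HMZ fed 20:30 replicate 1, against 2.52 to 6.06 CPM in the other 22 libraries. These are the 2 libraries with the most T and NK cell markers, of which 1 of 6 genes passed the filter on low counts. Mki67 and Ccnb1 were highest in the fasted library and Top2a and Ccnb2 in the 20:30 library. Cdk1, Cdc20 and Foxm1 were highest in other libraries, Cdk1 in WT fed 20:30 replicate 3 (2.58 CPM). Mki67, the proliferation marker, was at 4.16 and 2.78 CPM in the 2 libraries. In the other replicates of these groups it was at 0.525 and 1.07 CPM (fasted α7HMZ) and 1.13 and 0.900 CPM (α7HMZ 20:30), so that single livers set the upper range. When both were left out, which was chosen after seeing the data, 8 of the genes passed after the fast in α7HMZ livers (3 higher, 5 lower), against 11% of all genes (5.9% higher and 5.07% lower), with Mcm4, Mcm5 and Mcm6 lower by -0.68, -1.07 and -0.71, and 1 passed between fasted α7HMZ and fasted WT livers, E2f8, against 10.8% of all genes. At 20:30 1 gene then passed between the genotypes, Rrm2, with a log2 fold change of 1.30 (SE 0.27, adjusted p = 0.00394), against 14.3% of all genes. The part of the immune cell markers in these sums was not tested.

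**Figure D5:**
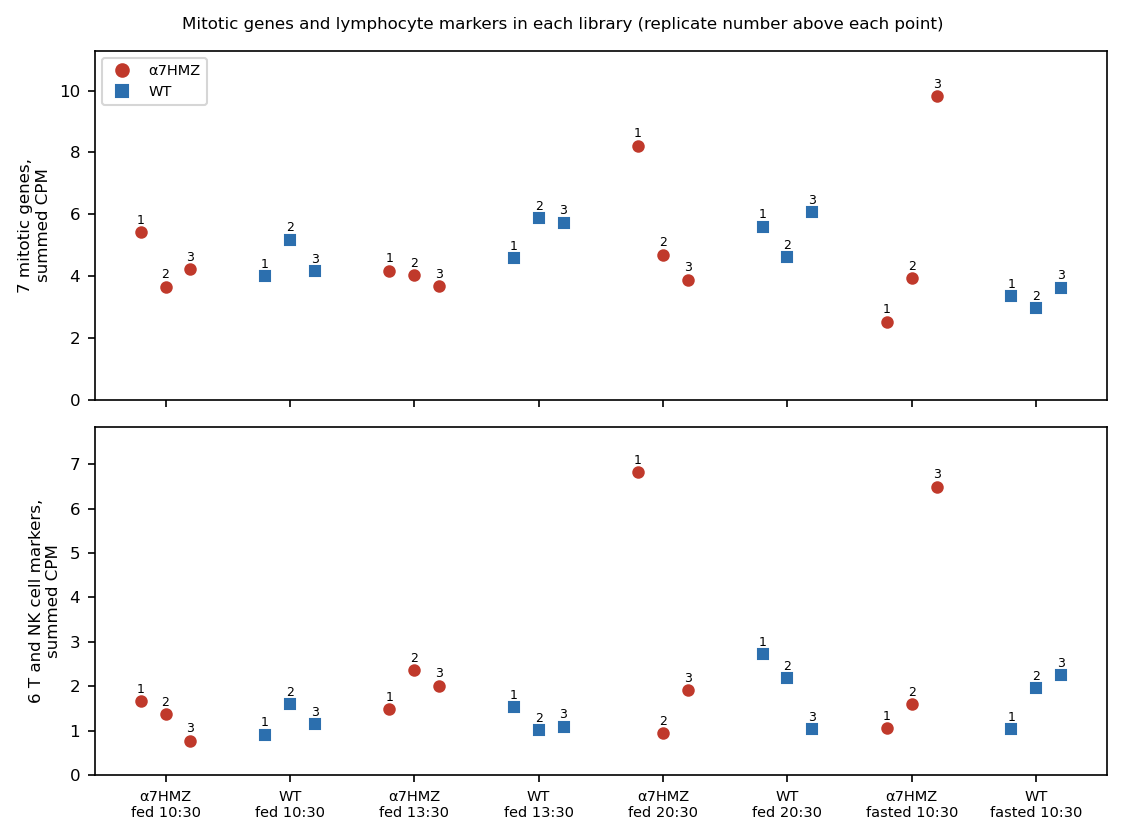
Summed CPM of 7 mitotic genes (top) and of 6 T and NK cell markers (bottom) in each of the 24 libraries, by group, in α7HMZ (red circles) and WT (blue squares) livers, with replicate numbers above the points. The 2 highest libraries in both panels are α7HMZ fed 20:30 replicate 1 and α7HMZ fasted replicate 3.

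The remaining tested genes passed in none of the 11 comparisons by edgeR. Cdk2, Ccne2, Ccna2 and Cdc25a, which act from late G1 to mitosis, had average genotype differences of 0.02, -0.11, 0.17 and 0.06 on the log2 scale. The CDK inhibitors Cdkn1b and Cdkn1c were at -0.01 and 0.18, Rb1 at 0.16 and Rrm1 at -0.09. Plk3, a polo-like kinase of the stress response, spread over the widest range of these, at 19.4, 67.4 and 18.7 CPM in α7HMZ livers at 13:30, against 64.9, 83.0 and 64.1 CPM in WT livers. At 20:30 its level was 38.4, 23.1 and 24.1 CPM in α7HMZ livers, against 75.6, 49.2 and 74.2 CPM in WT livers, without overlap, and its average difference of -0.68 did not pass (adjusted p = 0.0525). Ccng2, a cyclin of quiescent cells, was at -0.23 in the average (adjusted p = 0.439).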

How the data were processed

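The authors sequenced poly(A) RNA as single-end reads with a kit that does not mark strand, aligned them to mm10 with TopHat2 2.1.1, with only reads of 1 unique alignment kept, and used HTSeq 0.6.1 to count them per gene. The deposited values used here are these raw counts, for 23411 gene symbols and 24 libraries; the deposited FPKM and the authors' own comparisons were not used. Groups, times and flow cells came from the labels.

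The tests were those of edgeR 4.0.16, run in R 4.3.3 (quasi-likelihood test, TMM factors, low counts removed with filterByExpr, Benjamini-Hochberg adjusted p under 0.05 over all genes tested). The 18 fed libraries formed 1 fit (13334 genes tested) and the 12 libraries of 10:30 another (13103 genes tested), and 11 comparisons were made. These fits differ from the GC and full quantile normalisation with DESeq2 that the methods describe. Each SE was taken from the F statistic, as the size of the log2 fold change over its square root, and CPM are TMM-scaled over all 24 libraries. Each p-value rests on the spread between mice within groups, pooled over all groups of its fit and moderated across genes. Libraries outside a comparison thus enter its p-value. Each group held 3 mice, which shared a time and a strain. No pair of replicates agreed within sampling noise (smallest chi-square per degree of freedom 11.6). Gene positions are those of GENCODE on mm10, and promoters those of RefSeq.

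The genes and the lists were chosen with earlier results of these data known. Genes that passed in any comparison, Ccnd1 and Ccnb1 are given by library, and of each wider list at most 4 genes with the smallest p. Genes failing the filter in both fits were called too rare to judge, and tested genes with under 10 counts in any library thinly counted. Alternatives were upper quartile factors, full quantile offsets, DESeq2 1.42.0, other filters, all 24 libraries in 1 fit, a replicate block, and fits without single libraries or sets of libraries.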

Additional observations from a re-analysis of the deposited data

Results flagged for a closer look

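Wee1 was the only one of the 38 tested genes whose genotype difference differed between the times of day by the test of that difference (edgeR's quasi-likelihood F test on 13334 genes, adjusted p = 0.0381). DESeq2 also called Plk2 (adjusted p = 0.0159) and Cdkn1b (adjusted p = 0.0464), among 1611 genes that it called in all, against 665 by edgeR. The log2 fold change of α7HMZ over WT was 0.87 at 10:30, 0.93 at 13:30 and -0.21 at 20:30. The 10:30 libraries were on another flow cell than those of the other times. No group had over 3 samples, so single samples were not tested for standing apart.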

How the results depend on the processing

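No result changed direction. The counts of genes that passed moved by over 1.5 times under these alternatives: at 13:30, all 24 libraries in 1 fit gave 1; at 20:30, leaving out 4 libraries that were highest in Rn45s, in Krt19 or in Ctrb1 gave 1, as did leaving out the 2 libraries with the most T and NK cell markers. Genotype by time gave 2 with upper quartile factors, with at least 50 counts in 3 libraries and with all 24 libraries, 3 with DESeq2 (Wee1, Plk2 and Cdkn1b) and 0 without the 2 libraries. Without these 2 libraries, α7HMZ livers after the fast gave 8 and fasted α7HMZ against fasted WT livers 1, and DESeq2 gave 1 for the difference between fasting effects. Over all genes, 1606 of 13552 passed at 13:30 with all 24 libraries in 1 fit. At 20:30, 1140 of 13594 passed without the 4 libraries and 1908 of 13377 without the 2. Genotype by time gave 688 of 13334 with upper quartile factors, 809 of 11194 with at least 50 counts and 527 of 13552 with all 24 libraries. It gave 1611 genes with DESeq2 and 437 of 13377 without the 2 libraries. The main fits gave 1706 at 13:30, 2551 at 20:30 and 665 by genotype and time, of 13334. The cause was not tested. With single libraries left out, counts ranged from 1 to 4 at 10:30, 1 to 3 at 13:30, 0 to 4 at 20:30, 4 to 7 in the average, 0 to 2 for genotype by time, 2 to 4 (α7HMZ) and 5 to 10 (WT) for 20:30 against 13:30, 3 to 8 (α7HMZ) and 4 to 12 (WT) for the fast, 1 to 5 between fasted genotypes, and 0 for the difference between fasting effects. The 20:30 count of 0 came without α7HMZ replicate 3, and the WT fasting count of 4 without WT fed replicate 1. Over all genes, the counts in the same fits ranged from 1413 to 2688 at 10:30, 1051 to 1895 at 13:30 and 1399 to 3005 at 20:30. They were 3090 to 3857 in the average and 107 to 1834 for genotype by time. For 20:30 against 13:30 they were 273 to 834 (α7HMZ) and 1696 to 3428 (WT). For the fast they were 1124 to 1987 (α7HMZ) and 1781 to 3289 (WT), and 1114 to 2263 between fasted genotypes. The difference between fasting effects gave 8 to 84.

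The 42 calls on single genes were refitted 433 times under other settings, with 30 losses, and 654 times with 1 library left out, with 108 losses. No refit of either kind ended 19 of the 42. Apart from single libraries and the replicate block, the Ccng1 call at 13:30 was lost with upper quartile factors, full quantile offsets, no filter, all 24 libraries or without the 4 libraries. Full quantile offsets ended those of Rrm2 at 20:30, Cdkn2c in the average and E2f1 in fasted WT livers. All 24 libraries in 1 fit ended those of Ccnd1 at 13:30 and in the average, the second also lost with upper quartile factors, and of Mcm2 in fasted WT livers. DESeq2 ended that of E2f8 in the average. Leaving out either the 4 or the 2 libraries ended those of Pcna at 20:30, E2f8 in the average, Wee1 by genotype and time and Top2a between fasted genotypes. The 4 alone ended those of Wee1 at 10:30, Rrm2 at 20:30 and Cdk4 at 20:30 against 13:30 in WT livers, and the 2 alone that of Ccnd2 between fasted genotypes. Replicate numbers do not pair mice: of 84 same-numbered pairs, 7 had a correlation of deviations over 0.1 (median -0.00288). With the replicate block, 5 calls were lost, namely E2f8 at 10:30 and in the average, Ccng1 at 13:30, Mcm2 in fasted WT livers and Top2a between fasted genotypes. Depth limits Ccnb1, Cdc20, Foxm1 and Cdc6, which had 65 to 150 reads over all libraries and were left out of the tests by the filter. With no filter, Foxm1 passed between the fasted genotypes (adjusted p = 0.047 by edgeR), among 2047 of 18008 genes that did.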
